A study of Mus musculus with 6 samples.

Results

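Integrins and cadherins are the 2 large families of receptors by which cells hold on to matrix and to each other. The array design named 48 of them, out of 27672 gene names on the array, and they are described here in mouse embryonic stem cells depleted of subunits of the THO complex. A gene was a member if the design named it Itga, Itgb or Cdh with a number or letter, which gave 17 integrin alpha chains, 8 integrin beta chains and 23 cadherins on 100 probes, and the brightest probe over the 6 arrays stood for the gene. Integrins work as pairs of an alpha and a beta chain that span the membrane, bind matrix proteins such as fibronectin and laminin outside the cell, and connect to actin or keratin filaments inside it. Classical cadherins bind the same cadherin on the neighbouring cell and reach actin through catenins. E-cadherin (Cdh1) holds embryonic stem cell colonies together, and the laminin receptor chain Itga6 is a usual surface marker of these cells.

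J1, an established line of mouse embryonic stem cells, was transfected with siRNA that targets Thoc2, siRNA that targets Thoc5 or a non-targeting control (NT), and total RNA was taken 96 hours later. THO is a nuclear complex that packages newly made mRNA for export, and the comparison asks how the transcripts of the cells differ when 1 of its subunits is depleted. All 3 groups were grown in ESGRO medium and placed in M10 medium for transfection. Each group had 2 single-colour Agilent arrays, and the labels do not say whether the 2 came from separate cultures, so p-values measure only the spread between these samples.

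A level below is the log2 processed signal of a probe minus the 75th percentile of its array, so that 0 is the 75th percentile, and a level is compared only with the same probe on other arrays. That percentile was 306 signal units on Thoc5 replicate 1 and 716 to 905 on the other arrays. Thoc5 replicate 1 also had the lowest share of spots well above background, 56.7% against 68.3% to 79.7%. Thoc2 replicate 1 had 880 spots flagged as outliers against 63 to 155 elsewhere, and each of these 2 arrays was alone on its slide. The targeted genes were lower with their own siRNA, Thoc2 by 0.86 ± 0.28 on the log2 scale (SE, adjusted p = 0.304) and Thoc5 by 1.27 ± 0.27 (adjusted p = 0.130). All 10 embryonic stem cell markers were well above background on all 6 arrays. Their summed level, relative to the 75th percentile, was 458 and 451 on the NT arrays, 355 and 376 for Thoc2 siRNA and 358 and 302 for Thoc5 siRNA, and the part of this in the members' values was not tested.

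Of the 48 members, 24 were well above background on all 6 arrays, 20 on 1 to 5 arrays, and 4 (Cdh8, Cdh17, Cdh18 and Cdh19) on none. A gene entered the test if its probe was well above background on both arrays of at least 1 group, which 35 members did (14 alpha chains, 6 beta chains and 15 cadherins). The 13 that did not were Itga2, Itga10, Itgam, Itgb6, Itgb8, Cdh5, Cdh6, Cdh8, Cdh9, Cdh12, Cdh17, Cdh18 and Cdh19; a dimmer Itgam probe did pass but did not stand for the gene. Among these 13, 7 were well above background on Thoc2 replicate 1 and 1 to 3 on each of the other arrays. Itga10, a collagen receptor chain of cartilage, was at -1.36 on Thoc2 replicate 1 and between -7.41 and -5.84 on the other 5 arrays. No member was saturated.

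**Figure D1:**
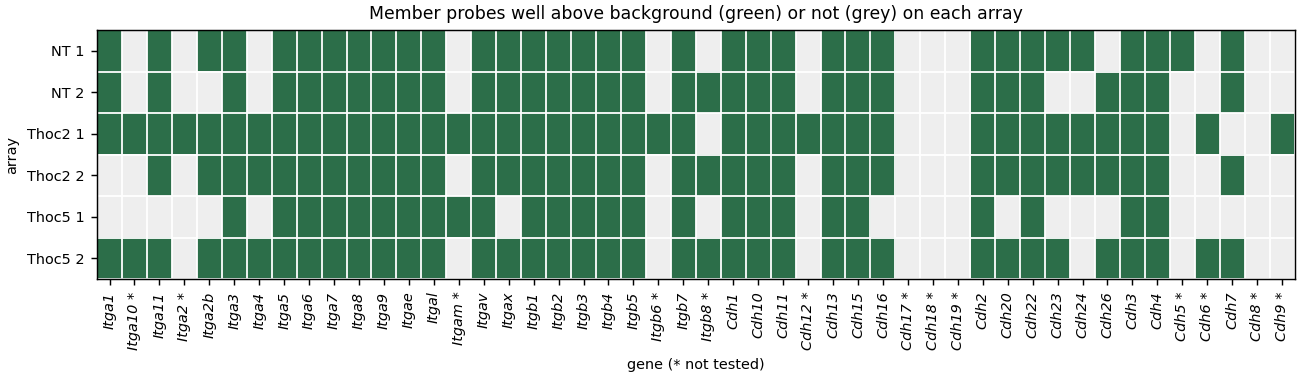
Each column is a member gene and each row an array; green marks a brightest probe well above background, grey one that was not, and an asterisk a gene that was not tested. The number of green cells is 34 and 32 on the NT arrays, 41 and 35 for Thoc2 siRNA and 25 and 37 for Thoc5 siRNA, so the dim Thoc5 array has the fewest and Thoc2 replicate 1 the most.

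Probes that read the same gene at different places are needed to follow the results for Itga8, Cdh4, Itga3 and Itgb1. Their sequences, and the start of the brightest probe of Itga9, whose Thoc5 arrays lay below all the others, are given from the array design in lower case, 5′ to 3′, with positions on mouse build mm7. Probes shown in part are the first 30 of 60 bases.
Itga8 brightest probe, chr2:12045993-12046052, minus strand, first 30 bases: catacattggtattctcgaggagtctatct
Itga8 distant probe, split over chr2:12094670-12099520, minus strand: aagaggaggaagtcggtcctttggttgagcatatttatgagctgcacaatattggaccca
Cdh4 brightest probe, chr2:180400026-180400085, plus strand, first 30 bases: ttttttgtaatcgtcaacagcacaaatatt
Cdh4 second probe, chr2:180391680-180391739, plus strand: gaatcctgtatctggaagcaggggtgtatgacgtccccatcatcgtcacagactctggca
Cdh4 upstream probe, chr2:180348173-180348232, plus strand: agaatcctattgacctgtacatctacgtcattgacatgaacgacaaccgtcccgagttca
Itga3 brightest probe, chr11:95153712-95153771, minus strand, first 30 bases: agacttaactctgctcccttgaccacagag
Itga3 distant probe, split over chr11:95163210-95164787, minus strand: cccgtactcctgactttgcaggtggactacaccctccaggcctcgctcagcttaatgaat
Itgb1 second probe, chr8:127331051-127331110, plus strand: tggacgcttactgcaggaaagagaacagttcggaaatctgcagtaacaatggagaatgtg
Itga9 brightest probe, chr9:118578986-118579045, plus strand, first 30 bases: taccttcagctttgtgtagccaaaaaagcc

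With Thoc2 siRNA the members with the largest differences from NT relative to their error were Itga8, Cdh4 and Cdh13, all brighter, and with Thoc5 siRNA they were Itga8, Itga3 and Cdh4, again brighter, followed by Itga9, which was dimmer. None of these passed the test. Fitted with limma to all 6 arrays, with Benjamini-Hochberg adjustment over 19337 genes and a threshold of 0.05, 0 of 35 members were called in either comparison with NT, and 0% of all genes were. At an unadjusted p under 0.05 there were 10 members with Thoc2 siRNA, 9 higher and 1 lower, against 14.5% of all genes (8.03% higher and 6.48% lower). With Thoc5 siRNA there were 8, 6 higher and 2 lower, against 19.5% of all genes (7.41% higher and 12.1% lower). As shares of the 35 tested members these are 28.6% and 22.9%. In 20 members the 2 Thoc2 arrays and the 2 NT arrays did not overlap (46.1% of all genes), 16 of them higher (25.6%) and 4 lower (20.6%). Of these 16, Itga4, Cdh23, Cdh24 and Cdh26 passed the filter through the Thoc2 arrays alone, as did Itga2b among the other members, and such a gene is more likely to lie higher there. In 17 the Thoc5 and NT arrays did not overlap (52.7% of all genes), 13 of them higher (21.7%) and 4 lower (31.1%).

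The call depended on 2 settings of the test. With a variance trend on intensity and robust variances, limma called 5 members in Thoc5 siRNA against NT. They were Itga8 (adjusted p = 0.017), Itga3 (0.029), Itga9 (0.036), Cdh4 (0.039) and Cdh11 (0.046). Of all 19337 genes tested, 661 were called there. Where only genes well above background on all 6 arrays were tested, 24 members entered. It then called Itga8 (adjusted p = 0.037), Itga3 (0.042) and Cdh4 (0.045), among 517 of 15205 genes. In Thoc2 siRNA against NT none of the settings run called a member.

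The median difference of the tested members from NT was 0.46 with Thoc2 siRNA against 0.06 over all genes tested, and 0.17 with Thoc5 siRNA against -0.09. Of the 35 tested members, 23 had a difference above 0 with Thoc2 siRNA, against 55.7% of all genes, and 22 with Thoc5 siRNA, against 43.2%. By family the medians with Thoc2 siRNA were 0.49 for the alpha chains, -0.14 for the beta chains and 0.60 for the cadherins. With Thoc5 siRNA they were 0.08, 0.09 and 0.32. Itga4, Itga2b, Cdh23, Cdh24 and Cdh26, all among the 23, passed the filter through the Thoc2 arrays alone. Such genes are more likely to lie higher there, which bears on the 23 and on the Thoc2 medians of members, alpha chains and cadherins. Itga1 and Cdh7 passed through the NT arrays alone. The median level of the tested members varied between replicates by a pooled SD of 0.40. That is a spread of levels over genes of unlike brightness, and does not measure the spread of these median differences. With single arrays left out, the members' median difference ranged from 0.34 to 0.56 with Thoc2 siRNA and from 0.050 to 0.40 with Thoc5 siRNA. The scaling also moved the members' differences. With each array centred on its median, which moved the median of all genes to -0.24 with Thoc2 siRNA, 18 members in place of 23 lay above 0 (32.0% of all genes). With a normexp background correction 28 in place of 22 lay above 0 with Thoc5 siRNA (61% of all genes).

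**Figure D2:**
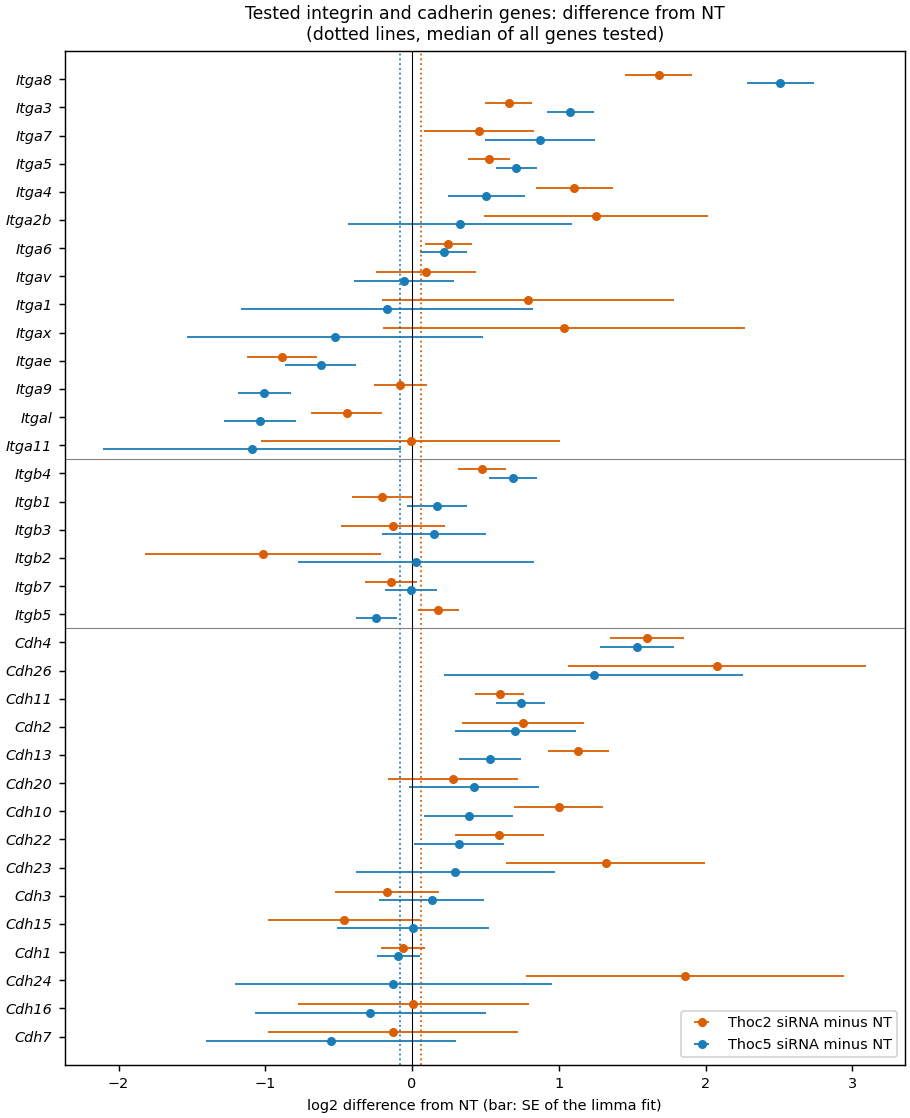
Points are log2 differences from NT of the 35 tested members for Thoc2 siRNA (orange) and Thoc5 siRNA (blue), with bars of 1 SE from the limma fit and dotted lines at the median of all genes tested; the families are separated by grey lines. Itga8 lies farthest to the right of the alpha chains at 1.68 and 2.51, Cdh4 has nearly the same value in both at 1.60 and 1.53, and Itga9 lies near 0 with Thoc2 siRNA and at -1.01 with Thoc5 siRNA.

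Among the alpha chains, Itga8 pairs with Itgb1 to bind nephronectin and fibronectin and is known from kidney and inner ear. Its level was -2.16 and -1.87 on the NT arrays, -0.17 and -0.51 for Thoc2 siRNA and 0.32 and 0.67 for Thoc5 siRNA. The 3 groups did not overlap. The difference from NT was 1.68 ± 0.23 with Thoc2 siRNA, or 3.20-fold (adjusted p = 0.209), and 2.51 ± 0.23 with Thoc5 siRNA, or 5.69-fold (adjusted p = 0.101). Within the slide that held an NT array and the group's own array it was 1.65 and 2.54. Thoc5 siRNA exceeded Thoc2 siRNA by 0.83 ± 0.23 (adjusted p = 0.494), but with the mean of all Itga8 probes the sign turned, to -0.69.

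A second Itga8 probe, 172 bases from the brightest, differed from NT by 1.71 and 2.70. The distant probe printed above lies 48677 bases from the brightest one, and read differently. It was at -5.67 and -6.16 on the NT arrays, -0.64 and -2.86 for Thoc2 siRNA and -6.22 and -5.04 for Thoc5 siRNA. It was well above background on 4 of the 6 arrays. Its Thoc2 arrays stood above all others, while its Thoc5 arrays overlapped NT, unlike with the other 2 probes. The distant probe passed the filter through the Thoc2 arrays alone.

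Itga3 and Itga6 are alpha chains of laminin receptors, which bind the matrix that embryonic stem cells lay down. Itga3 was at -0.23 and -0.45 with NT, 0.37 and 0.27 for Thoc2 siRNA and 0.66 and 0.82 for Thoc5 siRNA, in 3 groups that did not overlap. Its difference from NT was 0.66 ± 0.16 (adjusted p = 0.243) and 1.08 ± 0.16 (adjusted p = 0.104). A probe 327 bases away differed by 0.50 and 1.14, and the distant probe printed above by -0.31 and 0.71. The 0.50 was 0.21 without Thoc2 replicate 1, and the 0.71 was -0.02 without Thoc5 replicate 2. Itga6 was at 3.58 and 3.76 with NT, 4.0 and 3.84 for Thoc2 siRNA and 3.82 and 3.95 for Thoc5 siRNA. All 4 siRNA arrays were above both NT arrays, by 0.25 ± 0.16 and 0.22 ± 0.16, close to the size of the error, and the sign turned with normexp correction in both comparisons and with median centring for Thoc2 siRNA.

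Itga5, Itgav and Itga4 belong to receptors of fibronectin, Itga5 as the partner of Itgb1 in the main one. Itga5 was at -0.50 and -0.57 with NT, 0.03 and -0.05 for Thoc2 siRNA and 0.12 and 0.23 for Thoc5 siRNA. The arrays of a group lay close together and the groups did not overlap, with differences of 0.52 ± 0.14 (adjusted p = 0.258) and 0.71 ± 0.14 (adjusted p = 0.123). Itgav was at -1.23 and -1.56 with NT, -0.91 and -1.69 for Thoc2 siRNA and -1.66 and -1.25 for Thoc5 siRNA, and its groups overlapped. A second Itgav probe was not well above background on either NT array, but was on 1 Thoc2 array and on both Thoc5 arrays, which exceeded NT at least 5.16-fold. It passed the filter through the Thoc5 arrays alone, and the dimmer Itgav probes were well above background on 0 arrays.

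Itga4, found mainly on leukocytes and neural crest cells, was not well above background on either NT array, where it was at -5.81 and -6.17. It was at -4.63 and -5.14 with Thoc2 siRNA, well above background on both arrays, and at -5.63 and -5.33 with Thoc5 siRNA, above it on 1. Thoc2 siRNA thus exceeded NT at least 2.15-fold (adjusted p = 0.240). Such a bound divides the mean of the bright group by the dimmest signal that still counted as well above background on each dim array, or by the dim signal itself where that was higher. For Itga4 the NT signal itself was the higher, so the bound equals the fitted difference of 1.11 ± 0.26 on the log2 scale, which ranged from 0.85 to 1.36 with single arrays left out. Itga4 was tested only because both Thoc2 arrays were well above background.

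Itga9, which binds tenascin-C and VCAM-1, was the member with the smallest p between the 2 siRNAs. It was at 1.14 and 1.09 with NT, 0.86 and 1.20 for Thoc2 siRNA and 0.19 and 0.02 for Thoc5 siRNA. The Thoc2 arrays lay on either side of NT, and both Thoc5 arrays lay below every other array. The difference from NT was -0.08 ± 0.18 with Thoc2 siRNA (adjusted p = 0.854) and -1.01 ± 0.18 with Thoc5 siRNA (adjusted p = 0.113). Between the siRNAs it was -0.92 ± 0.18 (adjusted p = 0.454), and it ranged from -1.09 to -0.76 with single arrays left out.

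Itgal and Itgae are alpha chains that leukocytes use, Itgal with Itgb2 to bind ICAM-1 and Itgae with Itgb7 to bind E-cadherin. Itgae was at -0.82 and -0.98 with NT, -2.07 and -1.50 for Thoc2 siRNA and -1.46 and -1.58 for Thoc5 siRNA, with all 4 siRNA arrays below NT. Its differences were -0.89 ± 0.24 (adjusted p = 0.259) and -0.62 ± 0.24 (adjusted p = 0.266), and the first was -0.60 without Thoc2 replicate 1. Itgal was at -1.02 and -0.68 with NT, -1.05 and -1.55 for Thoc2 siRNA and -1.96 and -1.81 for Thoc5 siRNA. Its differences were -0.45 ± 0.24 (adjusted p = 0.462) and -1.03 ± 0.24 (adjusted p = 0.142), but a second Itgal probe gave 0.44 and 0.08. Of 11 leukocyte markers on the array, 5 were well above background on all 6 arrays, the pan-leukocyte gene Ptprc on 1 and Lyz2 on none. Their summed level was 5.01 and 4.40 with NT and 4.42 to 4.83 on the siRNA arrays.

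Of the beta chains, Itgb1, the partner of most alpha chains, is read by 10 spots on each array. It was at 0.56 and 0.57 with NT, 0.55 and 0.18 for Thoc2 siRNA and 0.58 and 0.89 for Thoc5 siRNA. The spots of 1 array had an SD of 0.02 to 0.14, and the differences from NT were -0.20 ± 0.20 and 0.17 ± 0.20 (adjusted p = 0.676 and 0.709). The second Itgb1 probe, 10143 bases from the first, was at -1.86 and -1.98 with NT, -0.52 and -1.44 for Thoc2 siRNA and -0.84 and -0.54 for Thoc5 siRNA. On this probe all 4 siRNA arrays were above NT, by 0.94 and 1.23 on average, the first being 0.47 without Thoc2 replicate 1.

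Itgb4, which pairs with Itga6 in the hemidesmosomes of epithelia, was at 1.33 and 1.59 with NT, 1.88 and 2.01 for Thoc2 siRNA and 2.16 and 2.15 for Thoc5 siRNA. The groups did not overlap, with differences of 0.48 ± 0.16 (adjusted p = 0.314) and 0.69 ± 0.16 (adjusted p = 0.142). A probe that shares 50 of its 60 bases gave 0.52 and 0.68, and another, 13670 bases away and well above background on 5 arrays, 0.50 and 0.59. On this last probe the Thoc2 arrays lay on either side of NT, and the difference was -0.45 without Thoc2 replicate 1. Of 8 trophoblast and epithelial markers, 6 were well above background on all arrays. Their summed level was 16.3 and 15.6 with NT, 11.6 and 11.3 for Thoc2 siRNA and 21.0 and 24.1 for Thoc5 siRNA. The keratins Krt18 and Krt8, the brightest of the list, made up most of this sum. Of the 7 markers tested, 3 had a difference above 0 with Thoc2 siRNA (median -0.34) and 6 with Thoc5 siRNA (median 0.65). Whether cells of these kinds had a part in the Itgb4 level was not tested.

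Itgb5 and Itgb3 pair with Itgav in receptors of vitronectin. Itgb5 was at 4.09 and 4.07 with NT, 4.19 and 4.33 for Thoc2 siRNA and 3.84 and 3.82 for Thoc5 siRNA. The Thoc5 arrays were the lowest and the Thoc2 arrays the highest, and the siRNAs differed by -0.42 ± 0.14 (Thoc5 minus Thoc2, adjusted p = 0.512). The Thoc2 difference of 0.18 from NT turned to -0.12 with median centring and -0.03 with normexp correction. Itgb3 was at -0.65 and -1.04 with NT, -1.37 and -0.58 for Thoc2 siRNA and -0.93 and -0.46 for Thoc5 siRNA, and all 3 groups overlapped. The leukocyte chains Itgb2 and Itgb7 had differences of -1.02 ± 0.80 and -0.14 ± 0.18 with Thoc2 siRNA and of 0.03 ± 0.80 and -0.01 ± 0.18 with Thoc5 siRNA.

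**Figure D3:**
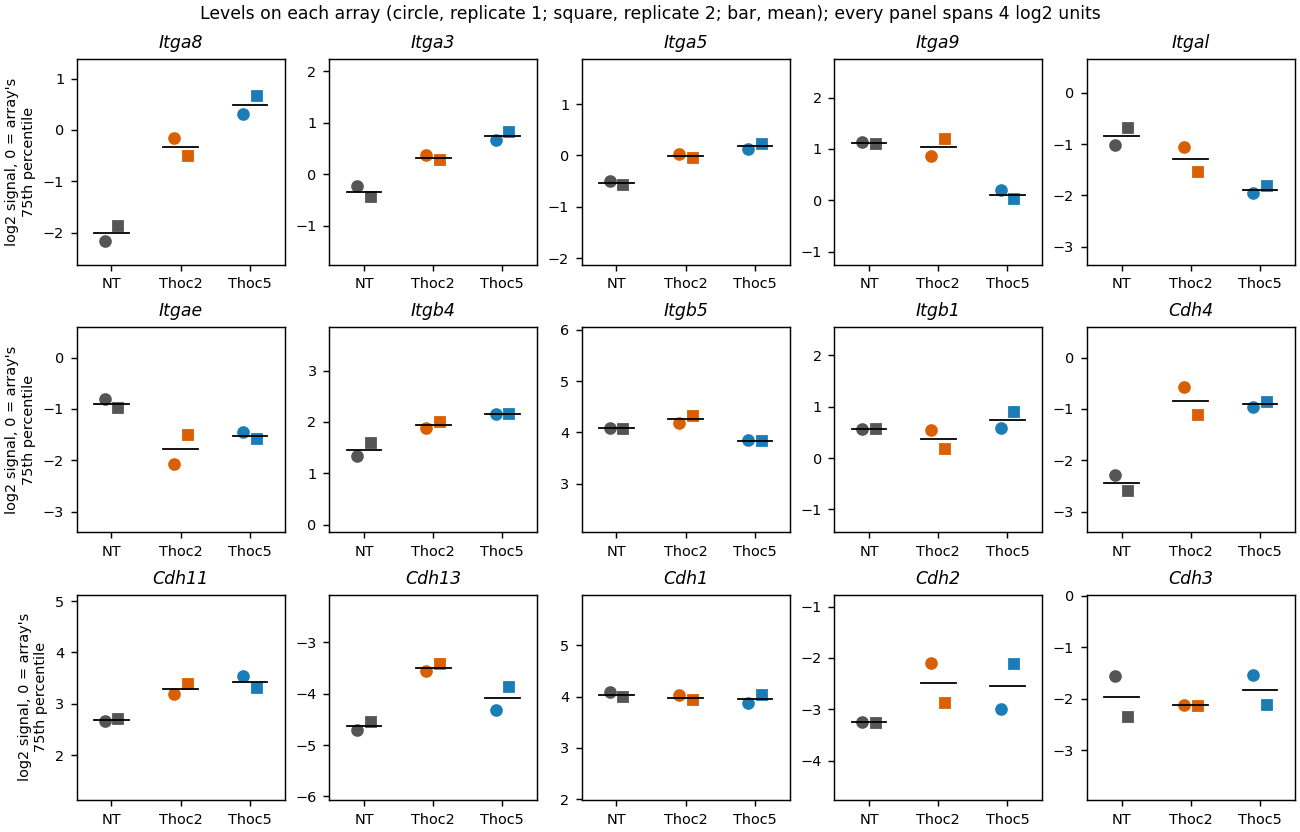
Each panel gives the level of 1 gene on the 6 arrays (log2 signal relative to the array's 75th percentile; circle, replicate 1; square, replicate 2; line, group mean), and every panel spans 4 log2 units. Itga8, Itga3, Itga5, Itgb4, Cdh4, Cdh11, Cdh13 and Cdh2 lie above NT on all 4 siRNA arrays, and Itgae and Itgal lie below NT on all 4. Itga9 is low only on the 2 Thoc5 arrays, and Cdh1 stays between 3.87 and 4.09.

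Of the cadherins, Cdh1 (E-cadherin), read by 10 spots, was at 4.09 and 3.99 with NT, 4.03 and 3.93 for Thoc2 siRNA and 3.87 and 4.02 for Thoc5 siRNA. The groups overlapped, with differences of -0.06 ± 0.15 and -0.09 ± 0.15 (adjusted p = 0.862 and 0.778), and the spots of 1 array had an SD of 0.02 to 0.22. Cdh2 (N-cadherin), which replaces E-cadherin in many cells that leave an epithelium, was at -3.24 and -3.26 with NT, -2.11 and -2.89 for Thoc2 siRNA and -2.99 and -2.11 for Thoc5 siRNA. All 4 siRNA arrays were above NT, by 0.76 ± 0.41 and 0.70 ± 0.41 (adjusted p = 0.462 and 0.432), while the replicates of each siRNA were at least as far apart as the means. The Thoc2 difference was 0.37 without Thoc2 replicate 1 and 1.14 without Thoc2 replicate 2, and the Thoc5 difference 1.14 without Thoc5 replicate 1 and 0.26 without Thoc5 replicate 2.

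Cdh3 (P-cadherin), known from placenta and basal epithelium, was at -1.56 and -2.36 with NT, -2.12 and -2.14 for Thoc2 siRNA and -1.53 and -2.12 for Thoc5 siRNA. NT replicate 1 and Thoc5 replicate 1 stood apart from the other 4 arrays, and the groups overlapped. The same 2 arrays were high for primitive endoderm markers: the summed level of the 8 markers was 10.6 and 14.0 there and 2.07 to 4.82 on the other 4 arrays. All 8 were well above background on every array, and their part in the Cdh3 level was not tested.

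Cdh4 (R-cadherin), known from retina and kidney, had the largest difference among the cadherins well above background on all 6 arrays. It was at -2.29 and -2.60 with NT, -0.56 and -1.12 for Thoc2 siRNA and -0.95 and -0.87 for Thoc5 siRNA. The 2 siRNA groups overlapped each other and both lay above NT, by 1.60 ± 0.25 (3.04-fold, adjusted p = 0.219) and 1.53 ± 0.25 (2.89-fold, adjusted p = 0.106). The second probe, well above background on 1 NT array and all 4 siRNA arrays, differed from NT by 1.95 and 1.51. The upstream probe, 51853 bases from the brightest, was not well above background on either NT array. It was on both Thoc2 arrays, at least 2.85-fold over NT, and on 1 Thoc5 array, for which no size is given. This upstream probe passed the filter through the Thoc2 arrays alone.

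Cdh11, the cadherin of mesenchymal cells and osteoblasts, was at 2.66 and 2.69 with NT, 3.18 and 3.38 for Thoc2 siRNA and 3.54 and 3.30 for Thoc5 siRNA. Both siRNA groups lay above NT, by 0.60 ± 0.17 (adjusted p = 0.266) and 0.74 ± 0.17 (adjusted p = 0.135). These values rest on the brightest of 3 Cdh11 probes. The others were well above background on 1 array and on 0 arrays and did not pass the filter. Of 12 fibroblast markers, 6 were well above background on all arrays and Fap on none, and their summed level was 3.24 and 2.54 with NT, 1.64 and 2.19 for Thoc2 siRNA and 1.40 and 1.69 for Thoc5 siRNA. Of the 8 fibroblast markers tested, 3 had a difference above 0 with Thoc2 siRNA (median -0.10) and 1 with Thoc5 siRNA (median -0.39), and the part of such cells in the Cdh11 level was not tested.

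Cdh13, a cadherin tied to the membrane by a lipid anchor, was at -4.70 and -4.54 with NT, -3.55 and -3.43 for Thoc2 siRNA and -4.31 and -3.87 for Thoc5 siRNA. Its groups did not overlap, with Thoc2 siRNA highest, by 1.13 ± 0.21 over NT (adjusted p = 0.222) against 0.53 ± 0.21 for Thoc5 siRNA (adjusted p = 0.271). Thoc5 siRNA minus Thoc2 siRNA was -0.60 ± 0.21 (adjusted p = 0.525), and -0.38 without Thoc5 replicate 1.

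The neural cadherin Cdh10 was at -4.75 and -4.80 with NT, -3.36 and -4.18 for Thoc2 siRNA and -4.40 and -4.37 for Thoc5 siRNA. Its Thoc2 difference of 1.00 ± 0.30 (adjusted p = 0.282) was 0.59 without Thoc2 replicate 1. Cdh24, which binds catenins as Cdh1 does, was at -4.63 and -7.77 with NT, -4.62 and -4.06 for Thoc2 siRNA and -6.52 and -6.14 for Thoc5 siRNA. It was well above background on both Thoc2 arrays and on neither Thoc5 array, a difference of at least 2.06-fold with Thoc2 siRNA higher (adjusted p = 0.626). Cdh24 was tested only because both Thoc2 arrays were well above background. On Thoc5 replicate 1 the dimmest signal that counted as well above background was at -4.64, close to the Thoc2 mean of -4.34.

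The direct comparison of the 2 siRNAs had 0 members called by limma, and 0% of all genes. At an unadjusted p under 0.05 it had 4 members against 9.14% of all genes: Itga8 was higher with Thoc5 siRNA, and Itga9, Itgb5 and Cdh13 were lower, against 2.19% and 6.95% of all genes. The arrays of the 2 siRNAs did not overlap in 15 members (45% of all genes), 7 of them higher with Thoc5 siRNA (13%) and 8 lower (32%). The median difference was -0.07 over the members and -0.13 over all genes. Its split depended on the scaling, with 14 members above 0 (35% of all genes), but 21 with median centring (72.8%) and 22 with quantile normalization (48.2%).

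With both siRNAs averaged against NT, 0 members were called (0% of all genes), and 11 had an unadjusted p under 0.05 against 19.2% of all genes, 8 of them higher (8.81%) and 3 lower (10.4%). The difference lay above 0 in 22 members (49.2% of all genes), and the 4 siRNA arrays did not overlap NT in 13 (30.1% of all genes), 11 of them higher (14%) and 2 lower (16%). The 11 members with an unadjusted p under 0.05 are named here. Higher were Itga8 by 2.09, Cdh4 by 1.57, Itga3 by 0.87, Cdh13 by 0.83, Itga4 by 0.81, Cdh11 by 0.67, Itga5 by 0.62 and Itgb4 by 0.58. The differences of Itgae, Itgal and Itga9 were -0.75, -0.74 and -0.54, and the Itga9 arrays overlapped NT. Itga4 passed the filter through the Thoc2 arrays alone. Adjusted p was 0.105 for Itga8 and 0.108 for Cdh4. With the intensity trend and robust variances limma called Itga8, Cdh4, Itga3 and Cdh11, among 642 of 19337 genes. With genes well above background on all 6 arrays it called Itga8, Cdh4 and Itga3, among 445 of 15205. The average shares its NT arrays with the comparisons above.

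**Figure D4:**
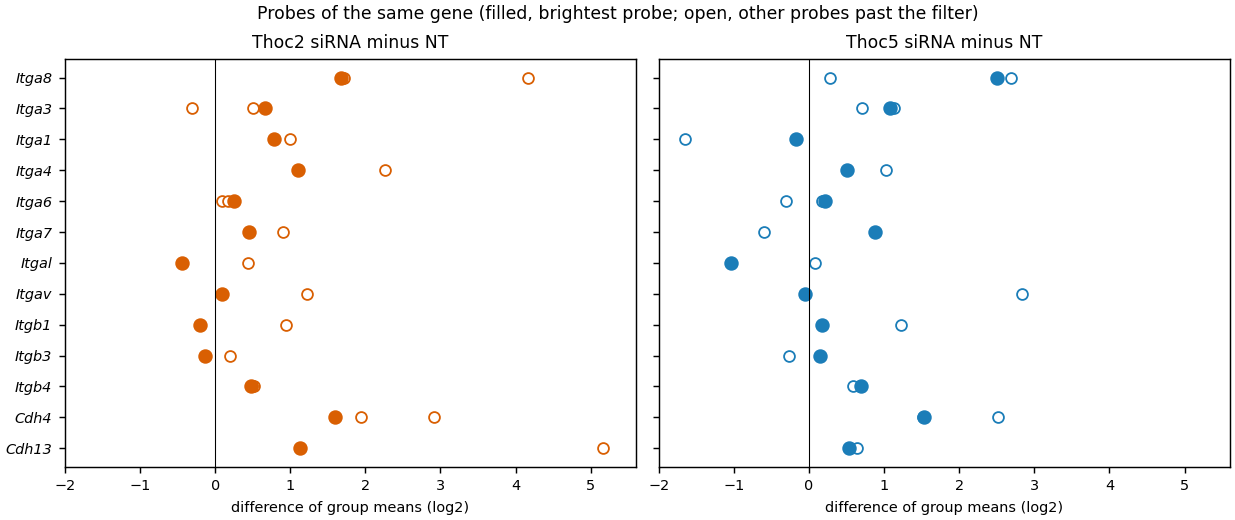
Points are differences of group means from NT on the log2 scale for the 13 members with at least 2 probes past the filter; filled points are the brightest probe and open points the others. Open points include 1 probe each of Cdh4, Itgav and Cdh13 that was not well above background on either NT array, so their distance from 0 is not a measured size. The probes of Itga8 are spread, with 1 Itga8 probe at 4.16 with Thoc2 siRNA and at 0.29 with Thoc5 siRNA. That Itga8 probe passed the filter through the Thoc2 arrays alone, and the Cdh13 point at 5.16 rests on 1 Thoc2 array.

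The genes that work with integrins and cadherins were counted in the same fit, in which none was called. The counts of each list are at an unadjusted p under 0.05, where 8.03% of all genes were higher and 6.48% lower for Thoc2 siRNA and 7.41% higher and 12.1% lower for Thoc5 siRNA. Of 16 tested genes of the adherens junction, 1 was higher (6.25%) and 1 lower (6.25%) for Thoc2 siRNA and 3 (18.8%) and 3 (18.8%) for Thoc5 siRNA. The p120 catenin gene Ctnnd1, whose protein keeps cadherins at the cell surface, was at -1.05 and -1.27 with NT and -0.13 and -0.15 with Thoc5 siRNA, a difference of 1.03 ± 0.18 (adjusted p = 0.108). The alpha-N-catenin gene Ctnna2 was not well above background on the Thoc5 arrays and was at least 2.68-fold lower there than with NT (adjusted p = 0.125). That size holds for the main processing only, since with normexp correction the difference turned to 0.64. With Thoc2 siRNA, Nectin1, an adhesion receptor of the junction, differed by 0.66 ± 0.22 (adjusted p = 0.311) and Lima1, an actin-binding protein, by -0.94 ± 0.24 (adjusted p = 0.248).

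Of 7 tested desmosome genes 0 were higher, and 2 were lower with Thoc2 siRNA (28.6%) and 1 with Thoc5 siRNA (14.3%). The plakophilin Pkp2, which ties desmosomal cadherins to keratin, was at 3.91 and 4.14 with NT, 2.65 and 3.01 for Thoc2 siRNA and 2.92 and 2.69 for Thoc5 siRNA. All 4 siRNA arrays were below NT, by differences of -1.19 ± 0.21 (adjusted p = 0.219) and -1.22 ± 0.21 (adjusted p = 0.107). Among the desmosomal cadherins, Dsg3, not well above background on either NT array, differed by 0.77 ± 0.63 with Thoc2 siRNA (adjusted p = 0.603), and the sign turned to -0.025 in the deposited table and -0.017 with quantile normalization. Dsg3 passed the filter through the Thoc2 arrays alone. Dsc2 differed by 0.58 ± 0.33 with Thoc5 siRNA (adjusted p = 0.423).

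Of 29 integrin adaptors and kinases 4 were higher (13.8%) and 1 lower (3.45%) for Thoc2 siRNA and 4 (13.8%) and 3 (10.3%) for Thoc5 siRNA. The parvin Parvb, part of the complex that connects integrins to actin, differed by 1.06 ± 0.21 and 1.00 ± 0.21 (adjusted p = 0.226 and 0.127), and Kank1, which binds talin at the rim of adhesions, by -0.76 ± 0.22 and -1.07 ± 0.22 (adjusted p = 0.278 and 0.127). Of 15 integrin ligands 3 were higher (20%) and 1 lower (6.67%) for Thoc2 siRNA and 4 (26.7%) and 2 (13.3%) for Thoc5 siRNA. Tnc (tenascin-C), a ligand of Itga9 and Itga8, was at -8.00 and -8.35 with NT and -3.93 and -2.57 with Thoc2 siRNA. It was not well above background with NT or Thoc5 siRNA, and Thoc2 siRNA exceeded NT at least 7.81-fold (adjusted p = 0.209). Tnc, among the 3 ligands higher with Thoc2 siRNA, was tested only because both Thoc2 arrays were well above background. Thbs1 (thrombospondin-1) differed by 2.06 ± 0.28 with Thoc5 siRNA (adjusted p = 0.101). Fn1 (fibronectin), the ligand of Itga5, was at 2.32 and 2.56 with NT, 1.52 and 1.55 for Thoc2 siRNA and 1.68 and 1.46 for Thoc5 siRNA. Its differences were -0.91 ± 0.17 and -0.87 ± 0.17 (adjusted p = 0.222 and 0.122), so that fibronectin was lower on the arrays where Itga5 was higher.

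Of 15 other genes of the cadherin superfamily 3 were higher (20%) and 1 lower (6.67%) for Thoc2 siRNA and 2 (13.3%) and 3 (20%) for Thoc5 siRNA. The protocadherins Pcdh17 and Pcdh1 differed by 2.09 ± 0.35 with Thoc2 siRNA (adjusted p = 0.219) and by 0.98 ± 0.19 with Thoc5 siRNA (adjusted p = 0.121), and the calsyntenin Clstn1 by -0.56 ± 0.14 and -0.66 ± 0.14 (adjusted p = 0.243 and 0.130). Of 7 tested transcription factors that repress Cdh1, 2 were higher (28.6%) and 0 lower for Thoc2 siRNA and 2 (28.6%) and 1 (14.3%) for Thoc5 siRNA. Zeb1 was higher with Thoc2 siRNA by 0.83 ± 0.20 (adjusted p = 0.240) and Snai2 with Thoc5 siRNA by 1.01 ± 0.32 (adjusted p = 0.209), while Tcf4 differed by -0.39 ± 0.16 and -0.55 ± 0.16 (adjusted p = 0.363 and 0.179). Cdh1 itself differed from NT by -0.06 and -0.09.

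The marker genes with the smallest p in each direction, by the same rule, were as follows, with adjusted p between 0.101 and 0.976. With Thoc2 siRNA the lowest p among embryonic stem cell genes was for Fbxo15 (-0.86), and among fibroblast genes for Dcn (1.06) and Loxl1 (-0.85). In the leukocyte list they were Laptm5 (1.28) and Coro1a (-0.56), and in the endothelial list Esam (2.07), an adhesion molecule of tight junctions, and Cd34 (-0.68). The neural, primitive endoderm and trophoblast lists gave Fabp7 (1.23), Hes5 (-0.999), Foxa2 (0.88), Col4a1 (-0.49), Cdx2 (0.97) and Krt18 (-0.54). Of these, Fabp7 passed the filter through the Thoc2 arrays alone. With Thoc5 siRNA the corresponding differences were -1.21 for Fbxo15, 0.10 for S100a4 and -2.01 for Thy1, 0.97 for Laptm5 and -0.62 for Coro1a, and 2.07 for Esam and -0.94 for Cd34. The other lists gave 0.22 for Nes, -0.997 for Hes5, 1.18 for Foxa2, -0.08 for Gata4, 1.16 for Hand1 and -0.30 for Tfap2c. The endothelial cadherin Cdh5 was well above background on 1 array only, NT replicate 1, and the summed level of the 9 endothelial markers was 7.23 to 10.3.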

How the data were processed

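Each scanner file gives, per the file headers, a processed signal intensity per spot (Feature Extraction 9.5.3.1; the submitters' processing notes name 11.0) on mouse build mm7. The authors' deposited log2 values of the whole series were also read, and their ranks match that signal (Spearman 1 for every array); how the authors made them is not given in the sources used here. Control and outlier spots were left out, spots averaged per probe, and a probe counted as well above background where at least 0.5 of its spots were. Names came from the files, updated through RefSeq accessions on GRCm38.p6; 3 probes that the files name otherwise now carry the symbols Itgav or Itga9 and were not members. The brightest probe per gene was fitted with limma 3.58.1 in R 4.3.3 (package data.table, version 1.17.8), two-sided, with 3 residual and 1.49 prior degrees of freedom, 4 comparisons and Benjamini-Hochberg adjustment over 19337 genes, 340 of them missing on an array (Itgax on Thoc2 replicate 1). With 2 arrays a group, the smallest p an exact permutation test allows is 0.333. The script was tested on simulated data. The number of arrays limits the precision.

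Members and lists were chosen with earlier results of these data known. Values on every array are given for 11 fixed members, for members called or with an unadjusted p under 0.05 in any comparison, and for those well above background on both arrays of 1 group and neither of another; in the other lists the called genes, or else the smallest p in each direction, are named. Alternatives were normexp correction (offset 50), other scalings, filters, probe rules, variance models, slide and replicate blocks, and leaving out each array.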

Additional observations from a re-analysis of the deposited data

Results flagged for a closer look

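Itgb5 and Itgb1 had both Thoc2 arrays on 1 side of NT and both Thoc5 arrays on the other. For Itgb5 the difference, Thoc5 minus Thoc2 siRNA, was -0.42 ± 0.14 (limma, adjusted p = 0.512), with the Thoc2 arrays above NT and the Thoc5 arrays below it. For Itgb1 it was 0.37 ± 0.20 (adjusted p = 0.628), with the Thoc2 arrays below NT and the Thoc5 arrays above it. Replicate 1 of each siRNA differed from the nearest NT array by less than the SD of its own spots, and the Itgb1 difference was 0.19 without Thoc2 replicate 2 and 0.22 without Thoc5 replicate 2. With median centring or normexp correction Itgb5 with Thoc2 siRNA lay below NT (-0.12 and -0.03). Neither difference passed the test, and the second Itgb1 probe lay above NT with both siRNAs.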

How the results depend on the processing

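The number of arrays, dim probes (11 of the 35 tested members were not well above background on every array) and unequal arrays limit these values. The cause of each change below was not tested, beyond the fewer genes or arrays that a setting itself uses. The number of members called was 0 in all 4 comparisons when any single array was left out. It moved with the intensity trend and robust variances to 5 for Thoc5 siRNA and 4 for both siRNAs (661 and 642 of 19337 genes). With genes well above background on all 6 arrays it moved to 3 and 3 (517 and 445 of 15205 genes). The members' median moved for Thoc5 siRNA to 1.07 (normexp) and 0.60 (within the shared slide) and for both siRNAs to 0.84 (normexp). With single arrays left out the medians ranged from 0.34 to 0.56 (Thoc2 siRNA), 0.050 to 0.40 (Thoc5 siRNA), -0.35 to 0.043 (Thoc5 against Thoc2 siRNA) and -0.0099 to 0.51 (both). The replicate numbers did not pair the samples (correlations of deviations -0.20, 0.14 and 0.22). The replicate block called 0 members, with medians of 0.46 and 0.17 against NT. Each group holds 1 array of each replicate number, so this block cannot change the difference of a gene with a value on all 6 arrays. The unchanged medians are therefore no check.

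These differences from NT changed sign. With Thoc2 siRNA, normexp gave Cdh3 0.28, Hes5 0.12, Itga6 -0.094, Itgb3 0.24, Itgb5 -0.031 and Loxl1 0.0065. Median centring gave Itga6 -0.056, Itgav -0.21 and Itgb5 -0.12. The mean of all probes gave Col4a1 0.099, Itgb1 0.37 and Itgb3 0.034, the shared slide Itga9 0.063, Itgav -0.46 and Itgb3 0.065, and Dsg3 was -0.025 in the deposited table and -0.017 with quantile normalization. Leaving out single arrays gave ranges of -0.57 to 0.23 for Cdh3, -2.12 to 1.14 for Col4a1, -0.067 to 1.82 for Foxa2, -0.25 to 0.087 for Itga9, -0.30 to 0.49 for Itgav and -0.52 to 0.26 for Itgb3. With Thoc5 siRNA, normexp gave Cdh24 1.09, Ctnna2 0.64, Gata4 0.84, Hes5 0.29, Itga6 -0.16 and Itgav 0.19. Median centring gave Gata4 0.011 and Itgav 0.033, the mean of all probes Itgav 1.39 and Itgb3 -0.061, and the slide as a random block Cdh24 0.17 and Gata4 0.13. The shared slide gave Cdh1 0.033, Cdh24 1.63, Gata4 0.78 and Itgav 0.31, and Cdh1 was 0.010 in the deposited table and 0.0051 with quantile normalization. Leaving out single arrays gave -1.70 to 1.44 for Cdh24, -0.27 to 0.54 for Cdh3, -1.22 to 1.06 for Gata4, -0.26 to 0.15 for Itgav, -0.089 to 0.39 for Itgb3 and -0.20 to 0.40 for S100a4. Between the siRNAs, the mean of all probes turned Itga8 to -0.69.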
